A study of Bos taurus with 179 samples.

Results

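Caspases are cysteine proteases that cut proteins after aspartate residues. Initiator caspases, such as CASP2, CASP8 and CASP9, are activated on adaptor complexes and pass the signal to executioner caspases such as CASP6, which dismantle the cell, whereas CASP1 and CASP4 belong to the inflammatory branch, which matures cytokines and opens membrane pores. In the ovary, apoptosis removes most germ cells and follicles before ovulation, and a growing oocyte stores mRNA for later use, so an abundant caspase transcript does not show that the protease is present or active.

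The caspase genes examined were 4 symbols made of CASP and digits paired with a gene ID in the study's table of genes expressed in all size groups, of which a shortened copy was used here, out of 21218 gene IDs counted: CASP1 (ENSBTAG00000050239), CASP2 (ENSBTAG00000018159), CASP6 (ENSBTAG00000012537) and CASP9 (ENSBTAG00000002472). That table was itself built on detection, so the presence of these 4 genes in every group is not a result. CASP4 and CASP8, which the same tables list as lowly expressed, are given for comparison, and caspases without a pair of ID and symbol in that copy were not analysed here.

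The data are polyadenylated mRNA of single denuded oocytes of cattle (Bos taurus) from abattoir ovaries. Growing oocytes were freed by slicing the cortex in cold medium that held the phosphodiesterase inhibitor cilostamide. The study's collection methods give the follicles of these growing oocytes as late secondary to early antral, and its aims extend to the mid-antral stage. By oocyte size, and after a review, it also assigns a follicle class to each group, which is secondary below 70 μm, medium antral at 100-109 μm, large antral at 110-119 μm and ovulatory > 120 μm, and follicle size was not labelled for single oocytes. Fully grown oocytes had been aspirated beforehand from follicles visible on the surface. Whether any of these are in the set, and in which size groups, is not stated. No treatment was compared. The oocytes of the analysed set fall into 8 groups by diameter: 21 oocytes < 60 μm, 25 of 60-69 μm, 23 of 70-79 μm, 24 of 80-89 μm, 21 of 90-99 μm, 18 of 100-109 μm, 19 of 110-119 μm and 14 > 120 μm. Libraries were made in 2 replicates, whose single-end reads were 150 bp long in replicate 1 and 75 bp in replicate 2, and the group < 60 μm holds only 3 oocytes of replicate 1 and the group > 120 μm only 4 of replicate 2. Animals and their age are not named, so the p-values measure the spread between these library sums, which may be technical.

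Total counts ranged from 277126 to 8038061 per oocyte. Values below are CPM, the counts of a gene scaled to a common library total after each total was multiplied by a TMM normalization factor, so they are relative levels and not plain shares of the counts, and the RNA content of the oocytes was not measured. Because mRNA was captured by its poly(A) tail, the amount of a transcript and the length of its tail cannot be told apart. All 6 oocyte markers, among them BMP15 and BTG4, had a count in each of these oocytes. The 3 granulosa markers (FSHR, AMHR2 and CYP11A1) together stayed at or below 3.62 CPM in every sum of oocytes of 1 group and replicate.

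To ask which caspases differed along oocyte growth, the oocytes of 1 size group and 1 replicate were added up, which gave 16 sums, and these were fitted with the replicate as a block. CASP1 and CASP6 increased over growth, CASP9 decreased with diameter, and CASP2 did not pass any test of this fit. In edgeR's quasi-likelihood test for any difference among the 8 groups, 2 of the 4 caspases passed an adjusted p of 0.05, against 14.9% of the 14087 genes tested: CASP1 (adjusted p = 1.16e-06, the third smallest p of all genes) and CASP6 (adjusted p = 0.0402). Over diameter, the slope passed for 3 of the 4, 2 upward (14.8% of all genes) and 1 downward (18.1% of all genes). Between oocytes < 60 μm and > 120 μm, 2 of the 4 were upregulated in the largest oocytes, against 9.36% of all genes.

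**Figure D1:**
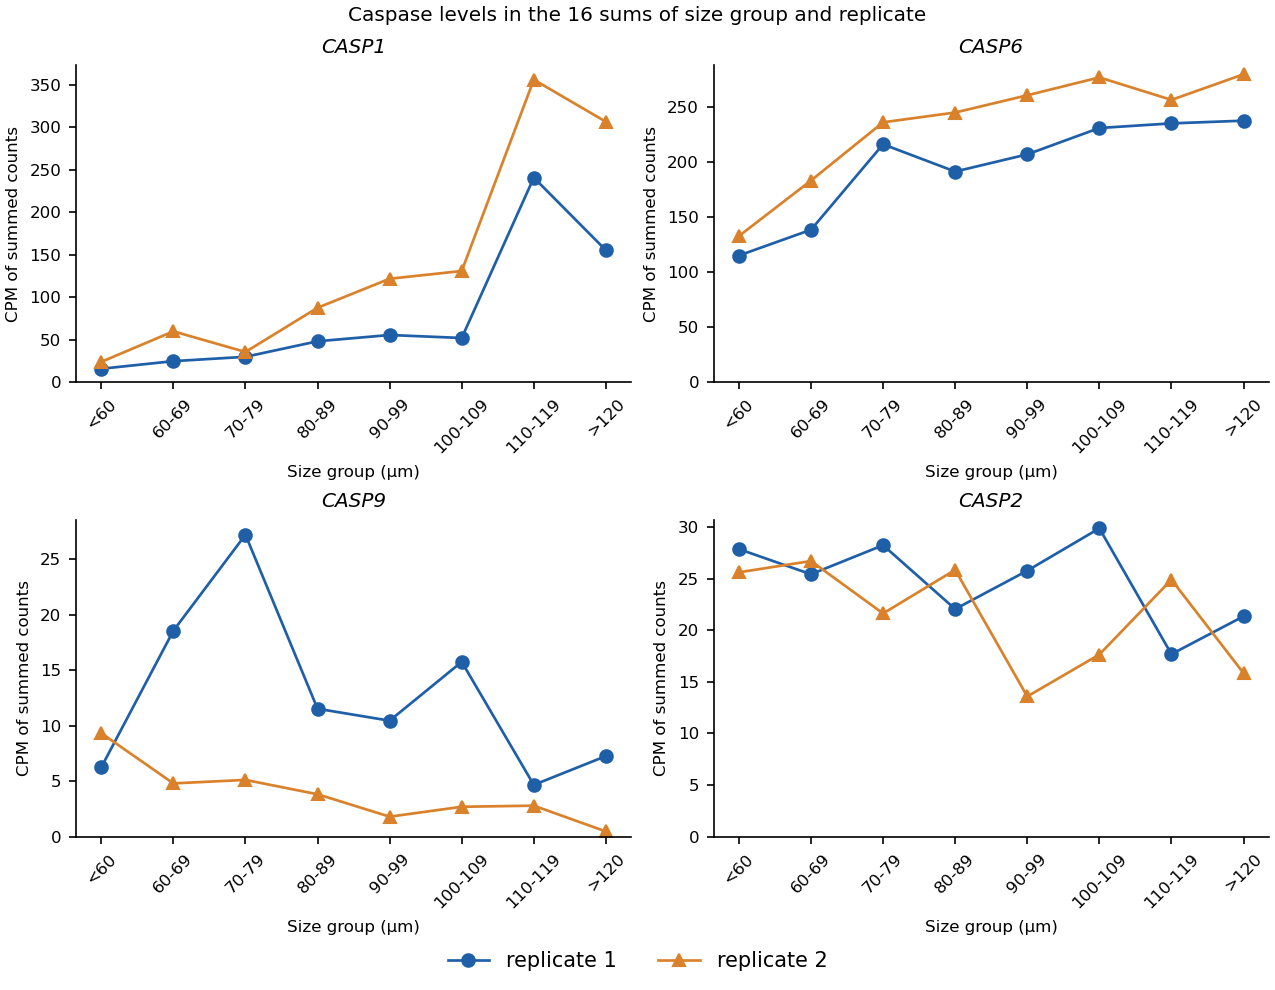
CPM of the summed counts (linear vertical axis from 0, in each panel its own scale) of CASP1, CASP6, CASP9 and CASP2 over the 8 size groups in μm. Each point is 1 of the 16 sums, joined within replicate 1 (circles) and replicate 2 (triangles). CASP1 is highest in the groups 110-119 and > 120 μm in both replicates, and CASP6 is lowest in the groups < 60 and 60-69 μm in both.

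CASP1, the protease of the inflammasome that matures interleukin-1 beta, showed the steepest change of the 4. In replicate 1 its sums held 15.6, 24.5, 29.7, 48.0, 55.4, 51.8, 241 and 155 CPM from the smallest to the largest group. In replicate 2 they held 23.7, 59.7, 35.4, 87.4, 122, 130.7, 356.1 and 307 CPM. Both replicates were thus lowest < 60 μm and highest at 110-119 μm, and replicate 2 lay above replicate 1 in every group. The log2 fold change from < 60 to > 120 μm was 3.50 ± 0.32 (SE, 2 sums a group), an 11.4-fold higher level (adjusted p = 3.13e-06, edgeR). The slope was 0.51 ± 0.047 on the log2 scale per 10 μm (SE, 16 sums, adjusted p = 1.95e-07, edgeR). Fitted within each replicate, the slope of replicate 1 was 0.51 ± 0.068 and that of replicate 2 was 0.50 ± 0.067, and their difference of -0.01 ± 0.093 was not called (edgeR adjusted p = 0.976).

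Whether CASP1 rose in steps or steadily was not tested. Among single oocytes, the lowest, median and highest levels were 4.47, 24.9 and 61.8 CPM in the 21 oocytes < 60 μm. At 100-109 μm they were 42.6, 72.3 and 245 CPM (18 oocytes), at 110-119 μm 11.3, 239 and 491 CPM (19 oocytes), and > 120 μm 106, 217.7 and 541 CPM (14 oocytes). In the 4 groups between 60 and 99 μm the medians were 16.5, 32.3, 48.5 and 79.2 CPM. Oocytes of neighbouring groups overlapped throughout, and the spread within a group was wide: the SD was 36.0% to 97.5% of the mean. Within 1 group and replicate it was 29.4% to 83.4%.

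Of the 5 comparisons of successive size classes used by the study, CASP1 passed 1, as the only one of the 4 to pass any of them. From the smallest to the largest classes, these comparisons called 0.135%, 0%, 0.497%, 3.88% and 0.00710% of the 14087 genes. From 100-109 to 110-119 μm it was 3.53-fold higher, with a log2 fold change of 1.82 ± 0.30 (SE, adjusted p = 0.0283, edgeR), the second smallest p among all genes of that comparison. This call rests on few sums: the adjusted p was 0.276 without the replicate 1 sum of 100-109 μm and 0.319 without that of 110-119 μm, with log2 fold changes of 1.60 and 1.61. Without the replicate block it was 0.835 at a log2 fold change of 1.71, and with all 179 deposited oocytes 0.0543 at 1.92 (edgeR), in fits that called 0 genes (647 with an unadjusted p under 0.05) and 2 genes in that comparison. From 70-79 to 80-99 μm the log2 fold change was 1.14 ± 0.26 with an unadjusted p of 0.000375 and an adjusted p of 0.665 (edgeR), in a comparison in which no gene was called and 780 had an unadjusted p under 0.05. DESeq2, which called 17 genes there, gave that step of CASP1 an adjusted p of 0.0200. Fits over single oocytes (edgeR) gave 0.00854 with raw counts and 0.0115 with ComBat-seq counts. Their units share 2 library batches, and they called 292 and 211 genes in that comparison.

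The other 3 steps of CASP1 were not called. Its log2 fold change was 0.28 ± 0.25 from < 70 to 70-79 μm, 0.19 ± 0.25 from 80-99 to 100-109 μm and -0.43 ± 0.29 from 110-119 to > 120 μm (SE). Ordered by the mean of both replicates, the groups ran from < 60 μm through 70-79, 60-69, 80-89, 90-99 and 100-109 μm to > 120 and 110-119 μm. In that order 60-69 μm did not differ from 70-79 μm beyond the spread of the replicates, nor 100-109 from 90-99 μm, whereas the gap of 1.40 (log2) between 100-109 and > 120 μm stood against a spread of 0.23.

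**Figure D2:**
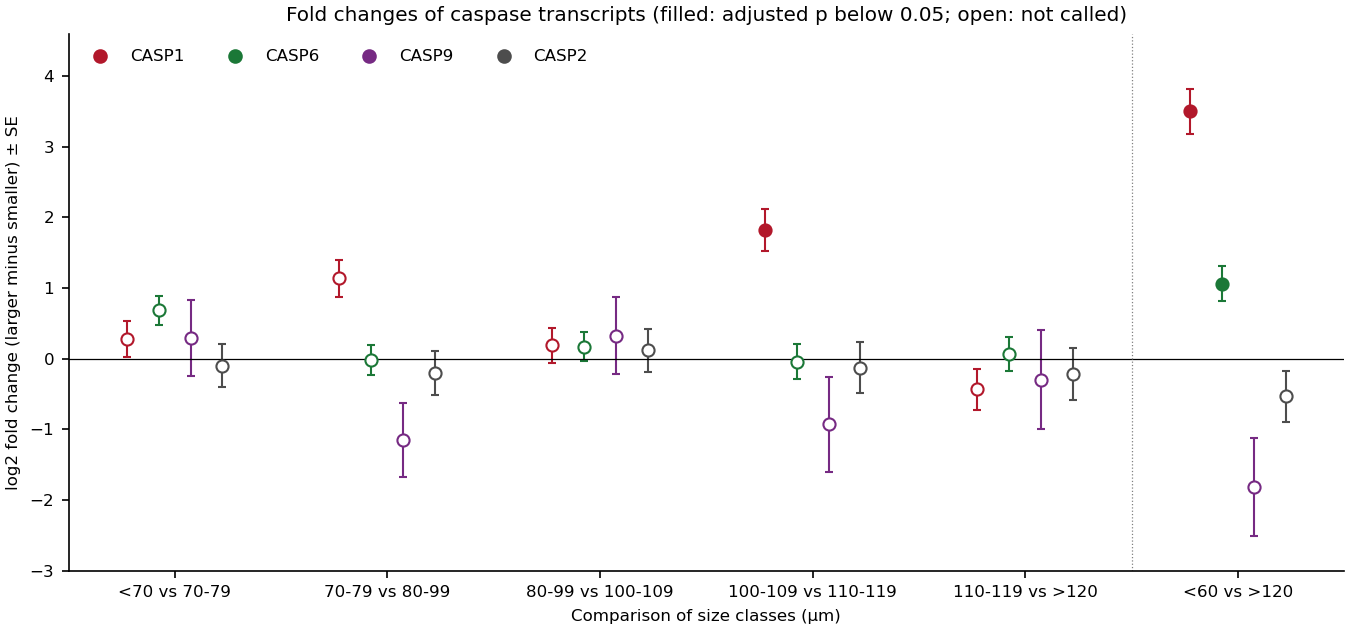
Log2 fold change (larger minus smaller size class, ± SE of the edgeR fit on 16 sums) of the 4 caspases in the 5 successive comparisons and, right of the dotted line, between oocytes < 60 and > 120 μm. Filled points passed an adjusted p of 0.05 and open points did not; CASP1 is filled at 100-109 against 110-119 μm (1.82) and in the last comparison (3.50), where CASP6 is filled too (1.06).

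Intervals of 5 μm describe CASP1 around the comparison of 100-109 with 110-119 μm, with no test. The mean was 75.8 ± 30.2 CPM (SD) at 95-100 μm (11 oocytes), 107 ± 83.3 at 100-105 μm (6 oocytes) and 84.7 ± 34.02 at 105-110 μm (12 oocytes). It was 245.6 ± 188 CPM at 110-115 μm (5 oocytes), 293.8 ± 141.3 at 115-120 μm (14 oocytes), 204.4 ± 46.7 at 120-125 μm (3 oocytes) and 145.6 ± 41.0 at 125-130 μm (6 oocytes). The 4 oocytes of 130-135 μm had a mean of 356.98 ± 130.8 CPM and the 1 oocyte from 135 μm on held 460.4 CPM. The means thus went down from 115-120 to 125-130 μm and were higher again from 130 μm on, in intervals of few oocytes. In replicate 1, 10 of the 12 oocytes of 110-119 μm lay above all 11 oocytes of 100-109 μm, and in replicate 2, 4 of 7 lay above all 7. The lowest oocyte of 110-119 μm, at 115 μm, had 4 CASP1 counts in a total of 328481, the lowest total of its group, together with 277.9 CPM of CASP6.

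**Figure D3:**
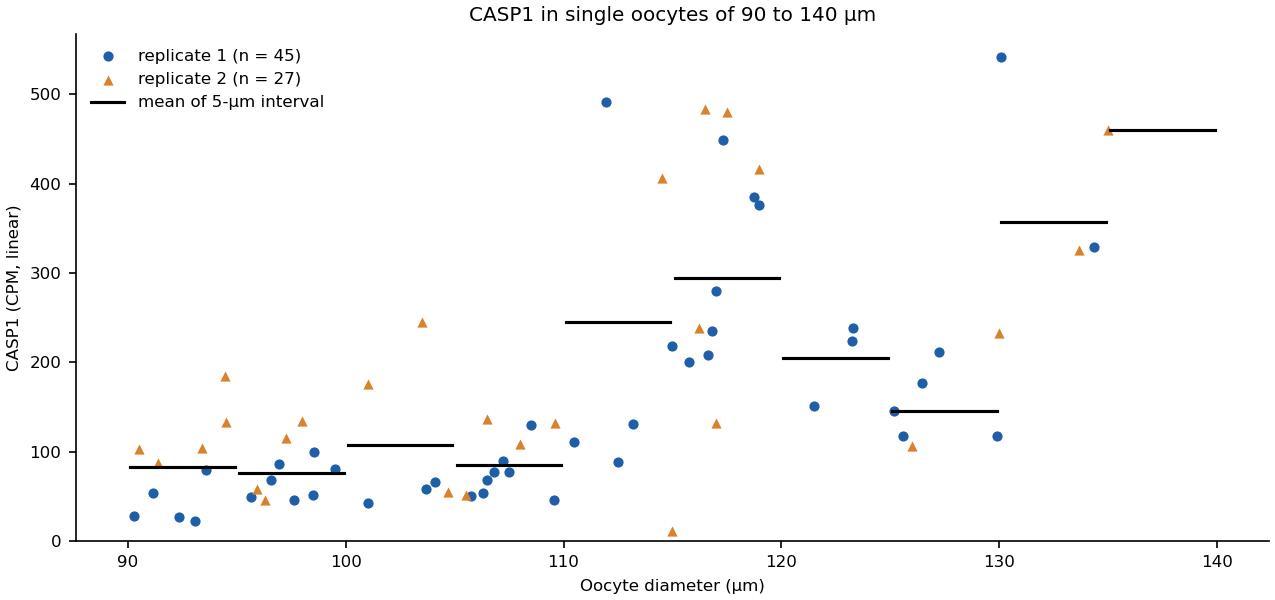
CASP1 (CPM, linear axis from 0) against diameter (μm) in the oocytes from 90 to below 140 μm, with replicate 1 as circles, replicate 2 as triangles and a black bar at the mean of each 5-μm interval. The means lie between 75.8 and 107 CPM below 110 μm, reach 293.8 CPM at 115-120 μm and stand at 145.6 CPM at 125-130 μm and 356.98 CPM at 130-135 μm.

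Depth was read beside CASP1. Over all oocytes of the set, with replicate means removed, log2(CPM + 1) of CASP1 had a Pearson r of 0.77 with diameter and 0.04 with the log10 total count, and the total itself had an r of -0.22 with diameter. Within a group and replicate, CASP1 and the log10 total had an r of 0.26, and the part of depth in that spread was not tested. These are descriptions over oocytes that share 2 library batches. Because CASP1 is abundant in macrophages, the leukocyte markers were read beside it. CSF1R, with 27.3 to 156 CPM in the sums and a count in every oocyte, had a log2 fold change of -0.67 ± 0.33 (SE) from < 60 to > 120 μm and was not called (edgeR adjusted p = 0.168), whereas from 100-109 to 110-119 μm, where CASP1 rose, CSF1R fell by 1.39 on the log2 scale (± 0.34, SE, edgeR adjusted p = 0.0396). CYBB fell by 1.98 on the log2 scale (± 0.65, SE, edgeR adjusted p = 0.0385) from < 60 to > 120 μm. CD74, at most at 1.32 CPM, was called downward over diameter (edgeR adjusted p = 0.00158) and was at 0 counts in the sums from 100-109 μm on. ARHGDIB and CD163 were higher at 110-119 than at 100-109 μm in both replicates, with 0.637 and 0.558 CPM against 0 in both for ARHGDIB and 0.671 and 0.558 CPM against 0 and 0.0929 CPM for CD163, and were not called (edgeR unadjusted p = 0.0232 and 0.0452, adjusted p = 0.13 and 0.182). Of the 17 markers listed 6 had enough counts to be tested, and 0 were called upward in any comparison. The 15 markers other than CSF1R and CYBB, a split of the list made after their values were seen, summed to between 0.466 and 3.82 CPM per sum. Among 6 markers of stroma and endothelium, COL1A2 did rise with CASP1, by 3.20 ± 0.73 on the log2 scale (SE, edgeR adjusted p = 0.00550), at 0.147 to 9.38 CPM. It was the 1 called of 2 with enough counts to be tested. CLDN5 was also higher > 120 μm, at 1.53 and 0.699 CPM in replicates 1 and 2, against 1.18 and 0.0846 CPM < 60 μm. COL1A1, COL3A1, DCN and CDH5 stayed below 1 CPM. The part of such cells in the CASP1 result was not tested.

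CASP4 is the neighbour of CASP1 in the RefSeq annotation of ARS-UCD2.0 and a related inflammatory caspase, and the treatment of reads that fit both genes is not given in the sources used here. CASP4 held at most 2.35 CPM in any sum and was at 0 counts in all oocytes < 60 and > 120 μm, which allows a level of up to 3 counts per oocyte. The split of counts between these genes is therefore uncertain.

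CASP6, an executioner caspase that cuts nuclear lamins, rose with diameter. Its sums in replicate 1 were 115, 138, 216.2, 191, 207, 231, 235 and 238 CPM from the smallest to the largest group. Those in replicate 2 were 133, 183, 236, 245, 260.7, 276.98, 256.5 and 280 CPM. In both replicates the groups < 60 and 60-69 μm were the lowest, and from 70 μm on the sums lay between 191 and 280 CPM. The fitted log2 fold change from < 60 to > 120 μm was 1.06 ± 0.25 (SE), a 2.09-fold rise (adjusted p = 0.00612, edgeR). The slope was 0.12 ± 0.028 per 10 μm (SE, adjusted p = 0.00223, edgeR), with 0.13 for replicate 1 and 0.12 for replicate 2, of which the latter alone was not called (edgeR adjusted p = 0.0550).

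Relative to the mean of each replicate, CASP6 stood at -0.76 (log2) < 60 μm, -0.39 at 60-69 μm, 0.12 at 70-79 μm and 0.31 > 120 μm. The step from < 70 to 70-79 μm was 0.69 ± 0.21 (SE) with an unadjusted p of 0.00350 and an adjusted p of 0.327 (edgeR), and the 4 later steps lay between -0.04 and 0.17. Single-oocyte fits, whose units share 2 library batches, called the early step, with an adjusted p of 2.13e-05 on raw counts and 2.88e-06 on ComBat-seq counts (edgeR). They called 857 and 923 genes in that comparison, against 19 on the sums. In single oocytes the lowest, median and highest CASP6 levels were 81.4, 130 and 238 CPM < 60 μm and 94.4, 207 and 338 CPM at 70-79 μm. In the 14 oocytes > 120 μm they were 156, 265.5 and 342 CPM, so single oocytes of the extreme groups still overlapped. CASP6 varied least from oocyte to oocyte, with an SD of 16.4% to 30.6% of the group mean.

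The call of CASP6 in the test of any difference was the less firm of the pair. Leaving out 1 sum at a time, its adjusted p ranged from 0.0146 to 0.131 and missed 0.05 in 8 of 16 cases, whereas CASP1 passed in all 16. Without the sum of the 3 oocytes < 60 μm of replicate 1, the adjusted p of CASP6 between the extreme groups was 0.0527 at a log2 fold change of 1.12. Without the replicate block, no gene passed edgeR's test of any difference (954 had an unadjusted p under 0.05), and the extreme groups of CASP6 had an adjusted p of 0.192 (edgeR) at the same log2 fold change of 1.06, with an SE of 0.36.

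**Figure D4:**
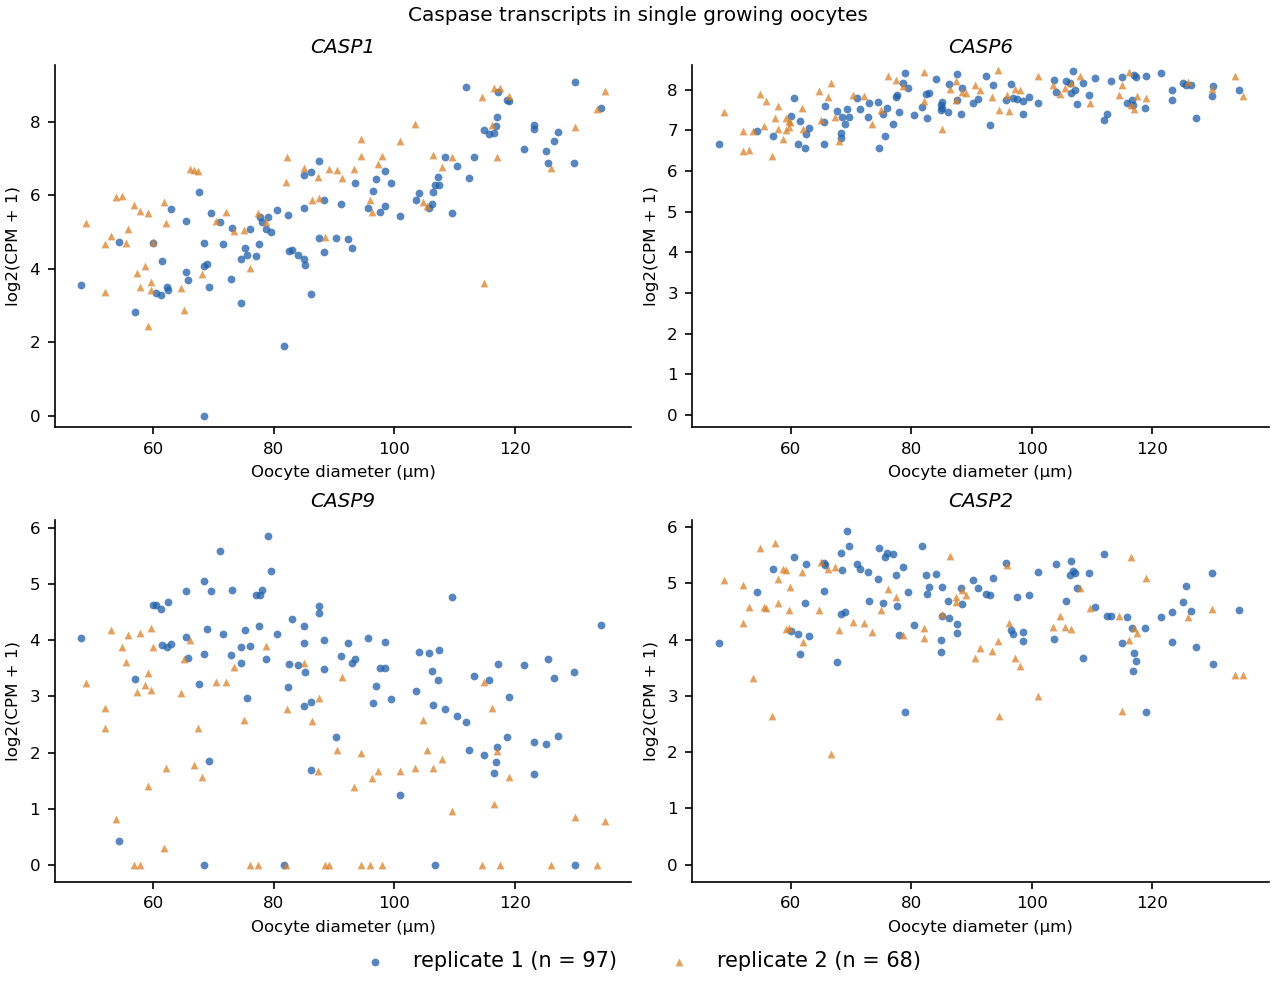
Level of each caspase, as log2(CPM + 1), against oocyte diameter (μm) in single oocytes, 97 of replicate 1 (circles) and 68 of replicate 2 (triangles). CASP1 (r = 0.77) and CASP6 (r = 0.62) rise with diameter, CASP9 (r = -0.42) falls with many oocytes at 0, and CASP2 (r = -0.27) shows little slope.

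CASP9, the initiator that the apoptosome activates after mitochondria release cytochrome c, went the other way at a low level. Its sums in replicate 1 were 6.25, 18.6, 27.2, 11.5, 10.4, 15.7, 4.66 and 7.26 CPM from the smallest to the largest group. In replicate 2 they were 9.32, 4.80, 5.11, 3.82, 1.80, 2.69, 2.79 and 0.466 CPM, the last from 2 counts. The replicates thus peaked in different groups, 70-79 μm in replicate 1 and < 60 μm in replicate 2. The slope was -0.26 ± 0.073 per 10 μm (SE, 16 sums, adjusted p = 0.00852, edgeR), but the adjusted p was 0.0586 without the replicate 2 sum < 60 μm, at a slope of -0.21. Without the replicate block the slope was -0.215 ± 0.124 (SE, edgeR adjusted p = 0.264). In the replicates taken singly it was -0.16 ± 0.10 (edgeR adjusted p = 0.273) and -0.36 ± 0.10 (edgeR adjusted p = 0.0206), and their difference of -0.20 ± 0.14 was not called (edgeR adjusted p = 0.634).

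Between < 60 and > 120 μm the log2 fold change of CASP9 was -1.82 ± 0.70 (SE, adjusted p = 0.0741, edgeR). It passed in 6 of the 8 fits with other settings that kept the block or replaced it by ComBat-seq, yet came to 0.0062 once the replicate 2 sum < 60 μm was left out, and to -2.75 (edgeR adjusted p = 0.00805) without that of replicate 1. Single oocytes held 0, 8.40 and 17.7 CPM (lowest, median, highest) < 60 μm, 0, 13.9 and 56.8 CPM at 70-79 μm and 0, 3.53 and 18.4 CPM > 120 μm. Levels of 0 occurred in every group, so the groups overlapped fully at the lower end.

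Of the 4 caspases, CASP9 had the lowest share of oocytes with a count. At least 1 count was found in 89.1% of all oocytes (Wilson 95% interval 83.4% to 92.99%), against 99.4% to 100% for the other 3. After thinning each oocyte to 250000 counts, CASP9 was found in 16 of 21 oocytes < 60 μm (76.2%, Wilson 95% interval 54.9% to 89.4%), 20 of 23 of 70-79 μm (86.96%, 67.9% to 95.5%), 9 of 19 of 110-119 μm (47.4%, 27.3% to 68.3%) and 6 of 14 > 120 μm (42.9%, 21.4% to 67.4%), and the other 4 groups lay between 66.7% and 84%. Before thinning, the groups of 70-79, 110-119 and > 120 μm stood at 91.3%, 89.5% and 78.6%. Reads carry no molecular identifiers, so these intervals cover counting error only. The shares pool both replicates, whose mix differs between groups. Before thinning, CASP9 had a count in 95.9% of the oocytes of replicate 1 and 79.4% of those of replicate 2. The part of the replicate in the differences between groups was not tested.

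CASP2, the initiator that the adaptor CRADD can recruit, lay between 13.6 and 29.9 CPM in all 16 sums. Its slope of -0.06 ± 0.034 per 10 μm (SE) was not called (edgeR adjusted p = 0.159), and from < 60 to > 120 μm its log2 fold change was -0.53, with a 95% interval of -1.24 to 0.18. With counts thinned to 250000 the slope was -0.10 (edgeR adjusted p = 0.0284), and over single oocytes -0.09 (edgeR adjusted p = 0.000990). These fits called the slopes of 4224 of 10810 and 6344 of 10993 genes, and single oocytes share 2 library batches. Single oocytes < 60 μm held 5.21, 24.1 and 51.3 CPM (lowest, median, highest), and those > 120 μm held 9.29, 20.9 and 35.3 CPM. No pair of neighbouring groups in the order of CASP2 levels differed beyond the spread of the replicates.

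From oocyte to oocyte, the members varied together only weakly. With the mean of each group and replicate removed, the 6 pairwise correlations of log2(CPM + 1) over oocytes lay between -0.25 (CASP1 with CASP2) and 0.14 (CASP1 with CASP6). The median slope of the 4 caspases was 0.03 per 10 μm (log2), beside -0.02 over all genes tested.

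CASP4 and CASP8 remained near the limit of detection. CASP4 had a count in 21 oocytes and CASP8 in 17. CASP8, the initiator behind death receptors, reached 2.03 CPM in 1 sum and at most 0.523 CPM in the other 15. Neither was called by edgeR in the test of any difference, where CASP4 had an unadjusted p of 0.0126 and CASP8 of 0.227.

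Genes around the caspases were taken from a list of 11 activators and adaptors, 13 inhibitors and 3 substrates, of which 10, 11 and 3 had enough counts to be tested; BCL2, BBC3 and BIRC7 did not. In the test of any difference, 3 activators and 1 inhibitor passed, 4 of 24 against the 14.9% of all genes. Over diameter, 4 of the 10 activators and adaptors passed, 3 upward and 1 downward, 5 of the 11 inhibitors passed, 3 upward and 2 downward, and 1 of the 3 substrates passed, downward. That makes 6 of 24 upward and 4 of 24 downward, beside 14.8% and 18.1% of all genes. Both directions occurred among activators and inhibitors alike. The median slopes of the lists were 0.06, 0.05 and -0.08 per 10 μm (log2), beside -0.02 over all genes.

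Among activators and adaptors, BAD, a BH3-only protein that blocks survival factors, had the steepest slope, 0.35 ± 0.066 per 10 μm (SE, edgeR adjusted p = 0.000400). Its sums were low, at 3.38 and 1.56 CPM < 60 μm and 18.5 and 12.6 CPM > 120 μm in replicates 1 and 2. CASP8AP2, a partner of CASP8 that also serves histone mRNA processing, rose by 0.20 ± 0.047 per 10 μm (SE, edgeR adjusted p = 0.00277). Its sums went from 61.7 to 85.1 CPM in replicate 1 and from 117 to 388 CPM in replicate 2 between the extreme groups. At 110-119 μm they were 140.8 and 380 CPM, above the 50.5 and 175 CPM of 100-109 μm, as was the case for CASP1. CRADD, the adaptor of CASP2, rose by 0.17 ± 0.048 per 10 μm (SE, edgeR adjusted p = 0.00848), and missed the test of any difference (edgeR adjusted p = 0.0598).

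APAF1, the scaffold on which CASP9 is activated, had a slope of 0.06 ± 0.031 per 10 μm (SE) and was not called (edgeR adjusted p = 0.133). Its level differed between replicates far more than between sizes: 56.7 to 89.7 CPM in the sums of replicate 1 and 224.7 to 438.1 CPM in those of replicate 2. ANP32A, which promotes apoptosome activity, fell by 0.22 on the log2 scale per 10 μm (± 0.033, SE, edgeR adjusted p = 4.41e-05), from 48.9 and 28.1 CPM < 60 μm to 13.1 and 10.3 CPM > 120 μm.

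Among the inhibitors, API5 fell by 0.18 per 10 μm (± 0.027, SE, edgeR adjusted p = 4.26e-05) and was the 1 inhibitor to pass the test of any difference (edgeR adjusted p = 0.0158). Its sums were 273 and 240 CPM < 60 μm and 87.1 and 116 CPM > 120 μm. BIRC2, a ubiquitin ligase that restrains cell death signalling, also fell over diameter. AVEN, which binds APAF1 and BCL2L1, the related ligase BIRC3 and the survival factor BCL2L2 rose, with slopes from 0.08 to 0.19 and adjusted p-values from 0.0215 to 0.0441 (edgeR). The substrate ACIN1, a chromatin factor cut by caspases, fell by 0.12 per 10 μm (± 0.032, SE, edgeR adjusted p = 0.00554).

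**Figure D5:**
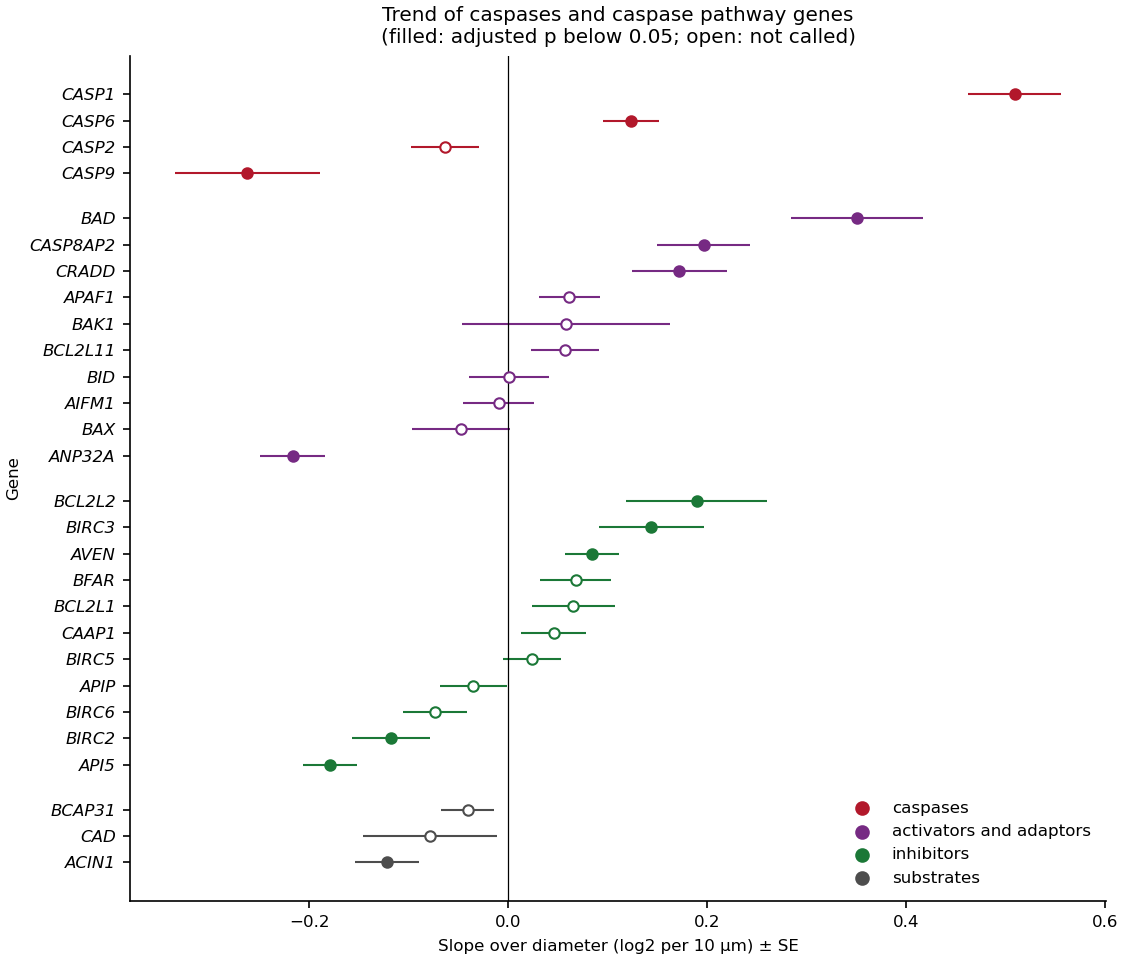
Slope over oocyte diameter (log2 per 10 μm, ± SE of the edgeR fit on 16 sums) of the 4 caspases and the 24 tested activators, inhibitors and substrates, 1 gene a line. Filled points passed an adjusted p of 0.05 and open points did not. CASP1 has the steepest upward slope (0.51) and CASP9 the steepest downward slope (-0.26) of the genes shown.

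The genes most like each caspase were found by Pearson's r over the 16 sums, with replicate means removed, among 2935 tested genes with a symbol. CASP1 came closest to CKS1B (r = 0.96) and CKS2 (r = 0.96), both subunits of cyclin-dependent kinases, and to the potassium channel KCNH5 (r = 0.95). CASP6 came closest to AGMAT (r = 0.95), PGF (r = 0.95) and ALDH1A1 (r = 0.93). CASP9 came closest to BACE2 (r = 0.89), CA8 (r = 0.86) and ALDH9A1 (r = 0.86), and CASP2 to ATF6B (r = 0.84), CXXC5 (r = 0.83) and C6H4orf19 (r = 0.82). As the highest of 2935 values, such correlations are large by selection and serve as a description only.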

How the data were processed

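Reads had been trimmed by the authors in Trim Galore (version 0.6.6, also in the submitters' processing notes), mapped them with HISAT2 to ARS-UCD1.2 and quantified genes in SeqMonk. The deposited values are raw counts per gene and oocyte; the treatment of strand, multiple hits and overlapping genes is not given in the sources used here. Counts of an ID on several lines were summed (CASP9: 3782 and 36 counts on 2 lines). Counts of the oocytes in the analysed set, 277126 to 8038061 each (median 1763520), were added per group and replicate. The authors removed the other 14 of 179. Genes kept by filterByExpr (minimum count 10, minimum total 15) were fitted with TMM factors, size group or mean diameter, and the replicate as a block by edgeR 4.0.16 (R 4.3.3; quasi-likelihood, Benjamini-Hochberg over all 14087 genes), tested on simulated data. Sums of a replicate share a library batch, and their deviations correlated at 0.398 to 0.694 over 28 pairs of groups, so the number pairs them; replicate, batch and read length cannot be told apart. Standard errors are the log2 value divided by the square root of F, and intervals are 1.96 standard errors. Levels are CPM over the total multiplied by its TMM factor, with a pseudocount of 1 in logs. Alternatives used DESeq2 1.42.0, sva 3.50.0 (ComBat-seq), RLE factors, no filter, thinning to 250000 counts, single oocytes, all 179 oocytes and each sum left out; slopes within replicates and CASP9 from its main line alone were added after seeing the data. Members and lists were chosen with earlier results of these data known; some caspases are not reported here. Named were the 4 members, CASP4, CASP8, listed genes passing the test of any difference, APAF1, CRADD and CASP8AP2, and for each member the 3 most similar genes; BIRC2, BIRC3, AVEN, BCL2L2 and ACIN1 were named after their slopes were seen. Tables and figures were made in Python 3.11.15 (scipy 1.17.1, matplotlib 3.10.9).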

Additional observations from a re-analysis of the deposited data

Results flagged for a closer look

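Caspase counts were also present in the 14 deposited oocytes outside the analysed set, which no comparison above used. More than 3 counts were found for CASP1 in 6 of the 14, for CASP2 in 5, for CASP6 in 9 and for CASP9 in 2. Of these oocytes, 9 had a total of at least 100000 counts, and among them CASP6 reached 224.98 CPM with a median of 159 CPM, CASP1 reached 1009.6 CPM with a median of 8.81 CPM, and CASP9 had a median of 0 (CPM of each oocyte's own total, without normalization factors). The highest CASP1 level there lies above the 541 CPM of the highest oocyte in the analysed set.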

How the results depend on the processing

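The replicate block carried much of the power: without it, 0 caspases differed among groups, 0 calls of a caspase were made in the successive comparisons (a caspase counts once for each comparison it passes), 1 caspase passed between the extreme groups, and 0 listed pathway genes passed, beside 2, 1, 2 and 4 with it. Single oocytes as units, which are not independent of their library batch, gave 4, 4, 4 and 15, and with ComBat-seq counts 3 calls in the successive comparisons, 4 caspases between the extreme groups and 15 pathway genes. Over all genes, the single-oocyte fit called 7187 of 10993 for any difference, 4451 between the extreme groups and 292 to 4062 per successive comparison. With ComBat-seq counts these were 7054 of 11050, 4535 and 211 to 4234. DESeq2 made 2 calls in the successive comparisons, both of CASP1. Those of single oocytes were 2 of CASP1, 1 of CASP6 and 1 of CASP9, and with ComBat-seq counts 2 of CASP1 and 1 of CASP6. All 179 oocytes gave 0 there and 2 pathway genes. RLE factors and no filter moved none of these counts beyond 1.5 times. With 1 sum left out, the counts ranged from 1 to 2 for any difference, 2 to 3 for slopes, 0 to 1 for the successive comparisons, 2 to 2 between the extreme groups and 1 to 5 for pathway genes.

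Sign changes arose in 14 slopes or fold changes of single caspases, of which 0 had passed the test. CASP6 turned from 100-109 to 110-119 μm with RLE (0.0011), DESeq2 (0.0013) and all oocytes (0.039), and from 70-79 to 80-99 μm with RLE (0.023), DESeq2 (0.023), no filter (0.038), thinning (0.16), all oocytes (0.0085), single oocytes (0.11) and ComBat-seq (0.12). CASP9 turned from 110-119 to > 120 μm without the block (0.12), with single oocytes (0.011) and ComBat-seq (0.075), from 80-99 to 100-109 μm with thinning (-0.34), single oocytes (-0.16) and ComBat-seq (-0.075), and from < 70 to 70-79 μm with thinning (-0.072). The causes were not tested.

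With 1 sum left out, CASP1 ran from -0.079 to 0.58 (< 70 to 70-79 μm) and -0.093 to 0.45 (80-99 to 100-109 μm). In order of size, the 5 steps of CASP2 ran from -0.17 to 0.022, -0.41 to 0.0080, -0.20 to 0.39, -0.49 to 0.23 and -0.59 to 0.15. CASP6 ran from -0.030 to 0.069 (70-79 to 80-99 μm), -0.15 to 0.10 (100-109 to 110-119 μm) and -0.080 to 0.14 (110-119 to > 120 μm). CASP9 ran from -0.18 to 1.2 (< 70 to 70-79 μm), -0.18 to 0.68 (80-99 to 100-109 μm), -2.18 to 0.23 (110-119 to > 120 μm) and -3.59 to 0.0062 between the extreme groups.

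Detection moved for CASP1 to 96.1% in all 179 oocytes and 100% in replicate 2, for CASP2 to 97.6% with thinning and 96.6% in all oocytes, and for CASP9 to 70.9% with thinning, 95.9% in replicate 1 and 79.4% in replicate 2. Over the alternatives, the correlation of CASP1 with diameter ran from 0.73 (replicate 2) to 0.81 (replicate 1). That of CASP6 ran from 0.62 (replicate 1) to 0.63 (ranks). For CASP2 it ran from -0.25 (without the 2 farthest oocytes) to -0.29 (ranks). For CASP9 it ran from -0.35 (pseudocount of 0.1 CPM) to -0.47 (ranks). Depth limits CASP9 most, with 2 counts in its smallest sum, and CASP4 and CASP8 throughout.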
